A study of Mus musculus with 4 samples.

Results

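Homeobox and paired-box (Pax) regulators that lie outside the Hox clusters were followed in mouse embryonic stem (ES) cells, the self-renewing cells of the early embryo that can form all of its tissues. The group was a list of 48 genes of the LIM, Nkx, Six2 to Six4, Otx, Emx, En, Gbx, Dlx, Irx, Meis, Msx, paired-like and Pax families, and its members were the probe sets that the platform annotation assigns to exactly 1 of these symbols. Of the 48 genes, 47 had such a probe set, 83 probe sets in all, among 18193 genes named in this way on the array. Pax2 had none, so its expression was not analysed here.

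The study hybridised RNA to 4 Affymetrix mouse genome arrays, with 1 array for each of 4 groups. The groups were a constitutive knockout (KO) of Ring1B, a control for it labelled wild-type, cells with a conditional double KO of Ring1A and Ring1B at day 4, deleted with OHT, and a control for these, also labelled wild-type. The labels give no strain, culture condition, clone number or passage, and do not say whether the control of the double KO received OHT. With 1 array per group no test across arrays was possible, no p-value was computed, and nothing here measures the spread between cultures.

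Homeobox genes encode transcription factors that bind DNA through a homeodomain, a compact helical fold, and Pax genes encode factors with a paired domain, several of which also carry a homeodomain. They assign regional and cell type identity in the brain, spinal cord, limbs, heart, gut and kidney, and most are silent in undifferentiated ES cells. Ring1A and Ring1B (genes Ring1 and Rnf2) are the E3 ligases of Polycomb repressive complex 1 (PRC1), which marks histone H2A with ubiquitin. Developmental regulators of this kind are classical targets of Polycomb repression in ES cells, and the comparisons ask how their transcripts differ when Ring1B alone, or both Ring1 proteins, are labelled as lost.

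Signals were read on a common scale, on which each array was multiplied so that its mean after trimming 2% at each end was 277. A floor of 36.6, the 40th percentile of named probe sets, was set below which values were not ordered. Where 1 array of a pair did not reach it, only the smallest possible fold can be given, written as "at least". The deposited trimmed means were 500.003 on both arrays of the Ring1B pair but 160 and 147 on the double KO pair, so levels compared across the pairs rest on this scaling and cannot be told apart from differences between the pairs. Neither target gene was clearly lower on the KO arrays. Rnf2 read 2579.7, 2775, 2182 and 1986 at its brightest probe set (Ring1B control, Ring1B KO, double KO control, double KO), and Ring1 read 146, 164, 44.7 and 55.6, but whether these probe sets lie in the deleted parts is not known here. The arrays are therefore named by their labels. All 8 ES cell markers examined, among them Pou5f1, Nanog and Sox2, were above the floor on all 4 arrays, and none was 2-fold apart in either KO comparison. Between the controls, 2 of the 8 were at least 2-fold lower in the double KO control (8.15% of all genes). These were Sox2 (6710 in the Ring1B control and 2470) and Zfp42 (5243 and 2611).

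Many homeobox and Pax genes gave signals near or below the floor. Of the 47 genes, 40 exceeded the floor on at least 1 array and 11 on all 4. Lhx1, Lhx5, Lhx9, En1, Dlx1, Alx4 and Pax7 stayed below it on all 4 arrays at the probe set used, the brightest of each gene. A second Lhx1 probe set read 37.1 in the Ring1B KO. Of the 4 arrays, that labelled double KO control had 38 of the 47 above the floor, against 25 for Ring1B KO, 17 for the Ring1B control and 12 for double KO. Over all 18193 genes these shares hardly differed, at 65.3%, 64.96%, 64.6% and 61.5% in the same order. The median signal of the 47 genes was 78.1, 46.5, 26.9 and 18.3, while the median over all genes differed less between arrays, at 114.9, 107, 104.7 and 88.1. In RNA of whole cultures fewer cells of a type and less RNA per cell cannot be told apart.

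**Figure D1:**
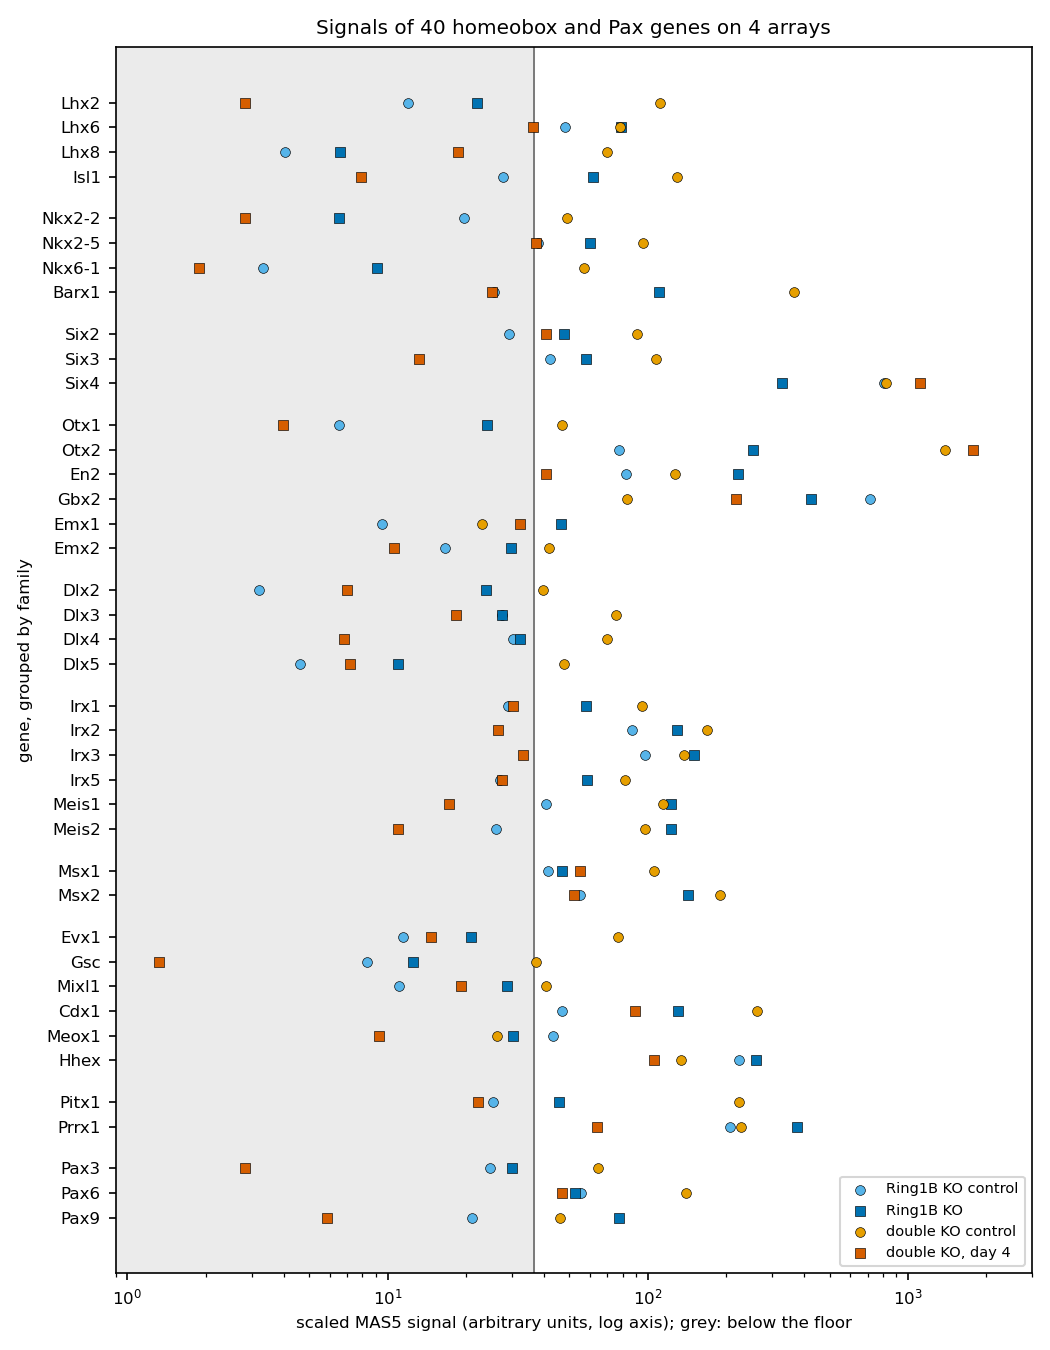
Scaled signal (arbitrary units, log axis) of each of the 40 homeobox and Pax genes that exceeded the floor on at least 1 array, grouped by family, with 1 point per array and the region below the floor of 36.6 in grey. The double KO control array is above the floor for 38 genes and the double KO array for 12.

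In the array labelled Ring1B KO, 8 homeobox and Pax genes exceeded its control by 2-fold or more and 1 lay that far below it. The higher ones were Otx2, En2, Msx2, Meis1, Meis2, Barx1, Cdx1 and Pax9, and the lower one was Six4. These counts are over the 26 genes that exceeded the floor on either array, so 30.8% were higher and 3.85% lower. Among all genes counted by this rule, 3.54% were higher and 2.61% lower by that much. The median log2 difference was 0.66, against -0.02 over all genes. A gene that entered only through the brighter array had to differ in that direction, which was so for 10 of the 26, 9 of them higher. Of the 16 with both arrays above the floor, 5 were at least 2-fold higher, against 2.99% of all such genes.

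The double KO comparison ran the other way, with lower signals in the array labelled double KO than in the array labelled its control. At least 2-fold lower were 21 of 38 genes that exceeded the floor on either array (55.3%), where 9.99% of all genes were. Gbx2 was the only member at least 2-fold higher, against 3.02% of all genes. The median log2 difference was -1.08, against -0.05 over all genes. The array labelled double KO was below the floor for 26 of the 38, including 14 of the 21 called lower, so most of these sizes are bounds. Of the 12 genes with both arrays above the floor, 7 were at least 2-fold lower, against 8.60% of all such genes. Scaling to a common median in place of a common mean gave 19 lower members and 1 higher, while the split over all genes became 6.66% lower and 6.09% higher.

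**Figure D2:**
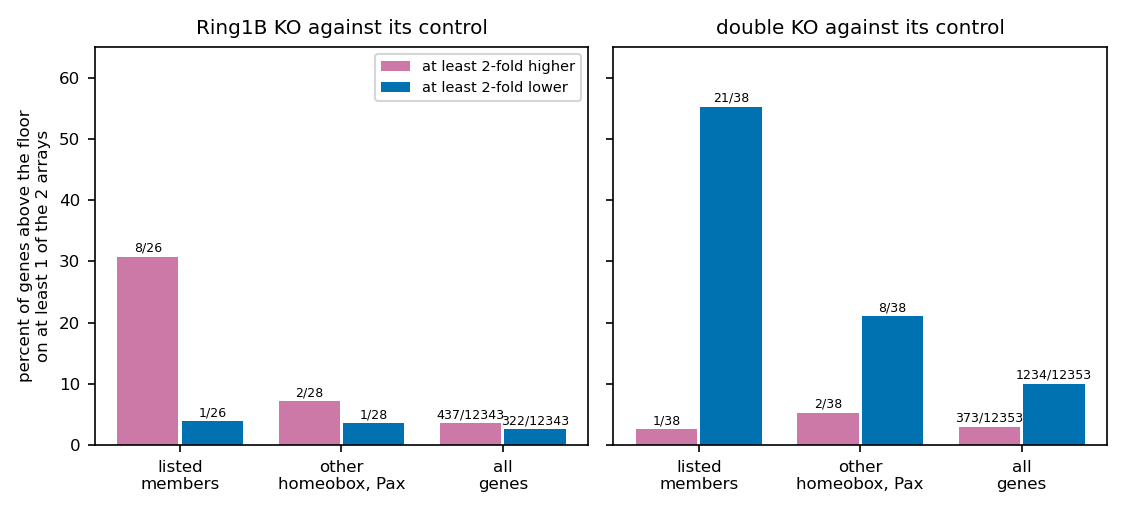
Bars give the percent of genes at least 2-fold higher or lower in each comparison, among genes that exceeded the floor on either array, with the counts above each bar, for the listed members, for the other homeobox and paired-box genes and for all genes. The members stand at 8 of 26 higher in the Ring1B comparison and 21 of 38 lower in the double KO comparison.

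The same shares were counted among genes of like signal, a comparison chosen after the values were seen. Among all genes whose brighter array lay between the floor and 4 times the floor (146), 4.77% were at least 2-fold higher in the Ring1B comparison and 12.0% at least 2-fold lower in the double KO comparison. Among the members in that range the counts were 6 of 19 and 15 of 29. All 10 members with 1 array below the floor in the Ring1B comparison lay in this range. So did most of the 26 such members in the double KO comparison. The direction of such a gene is set by its entry through the brighter array, so these counts are not separate support. Among brighter genes the shares were 3.02% and 9.20%, and the members' counts were 2 of 7 and 6 of 9. The array labelled double KO had somewhat weaker dim signals throughout, with a median over named probe sets of 55.1 against 67.4 on its control. Raising the floor to the 60th percentile left 1 higher and 1 lower member of 10 in the Ring1B comparison and 2 lower members of 14 in the double KO comparison (all genes 1.85% higher and 1.67% lower, and 5.78% lower). A higher floor also shrinks the folds by its construction.

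The 2 arrays labelled wild-type also differed from each other for these genes. In the array labelled double KO control, 18 of 39 members exceeded the Ring1B control by 2-fold or more (12.2% of all genes) and Gbx2 lay 2-fold or more below it (8.15% of all genes), with a median log2 difference of 0.94 against 0.13 over all genes. Of the 39, 23 had 1 array below the floor and so a direction set by their entry, 22 of them higher, including 10 of the 18. Of the 16 with both arrays above the floor, 8 were at least 2-fold higher, against 1314 of 10974 such genes over all. Each of the comparisons with an own control shares an array with that of the controls, so they are not separate evidence. On the deposited scale, before the pairs were brought together, 3 of 34 members were higher and 7 lower between the controls, where 0.6999% of all genes were higher and 65.2% lower. The array labelled double KO control had the highest signal of the 4 for 27 of the 40 members above the floor, against 31.8% of all genes. A member above the floor on that array alone was counted only through it, so its place as highest was fixed. When the array labelled Ring1B KO was compared with the double KO control, 1 of 39 members was at least 2-fold higher (7.98% of all genes) and 11 were lower (11.1% of all genes), with a median of -0.49 against -0.14 over all genes. The member median of the array labelled Ring1B KO was thus above 0 against its own control and below 0 against the other. Members with 1 array below the floor count in these medians with a direction set by their entry. Set against the Ring1B control, the array labelled double KO had a median of -0.22 over 18 members and 0.02 over all genes. By 2-fold or more, 6 members were lower (9.87% of all genes) and Otx2 was higher (7.82% of all genes).

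**Figure D3:**
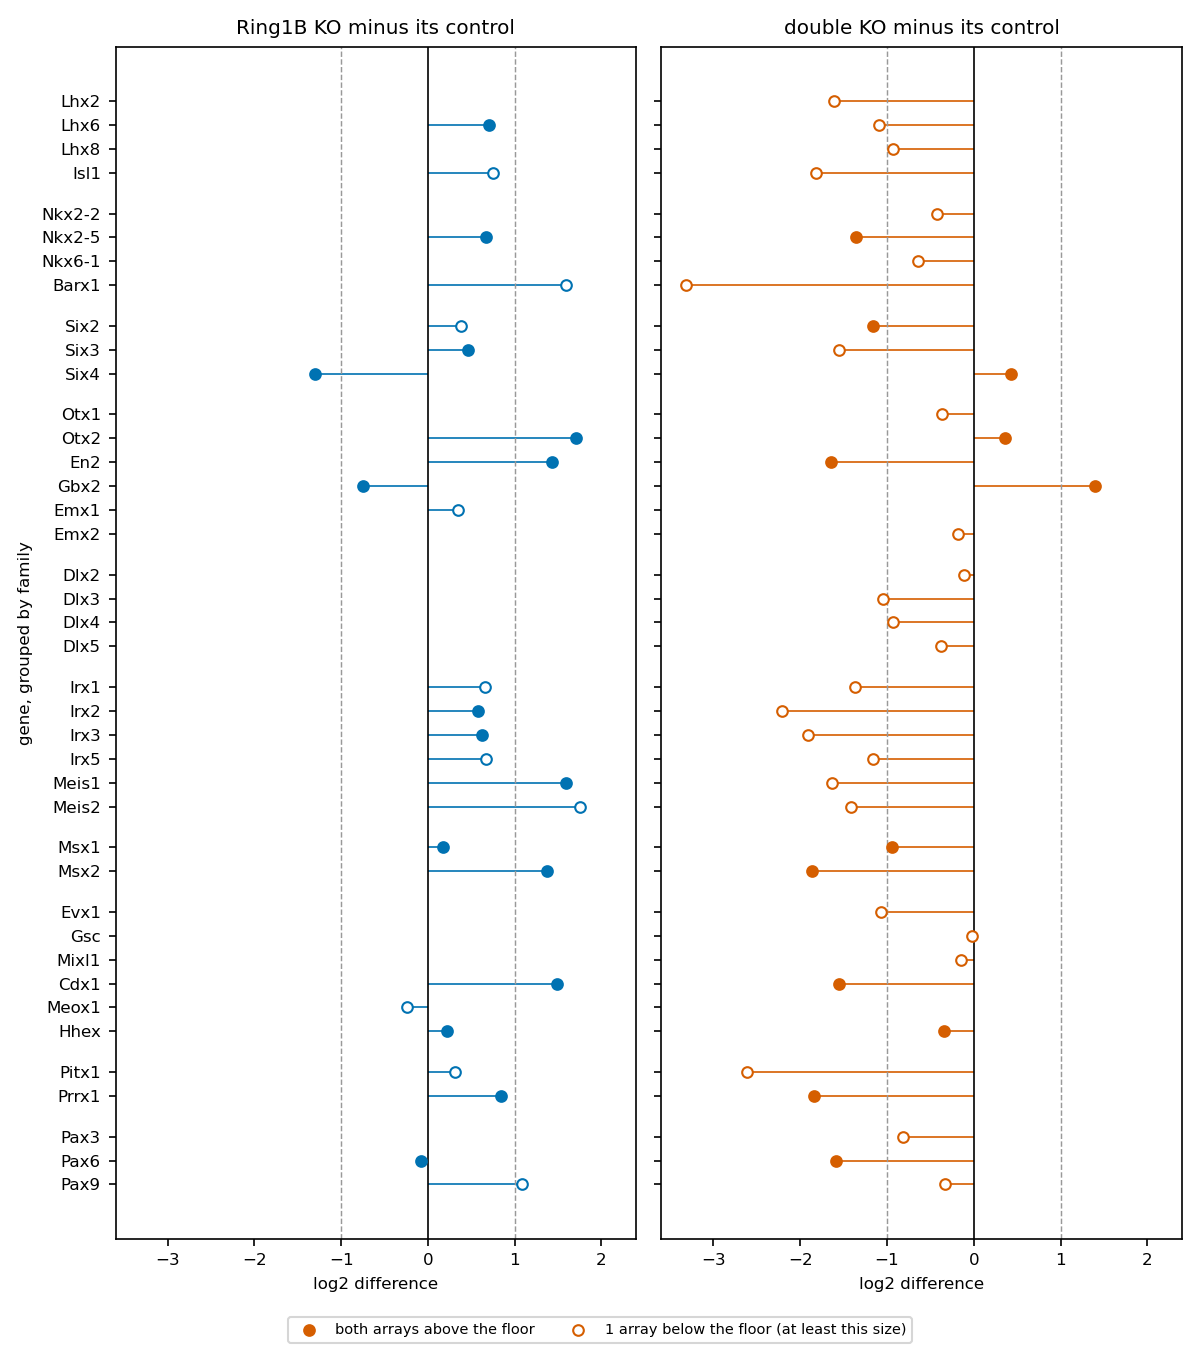
Log2 difference of each member from its own control in the Ring1B comparison (left) and the double KO comparison (right), with filled points where both arrays exceeded the floor, open points where 1 was below it and the size is a lower bound, and dashed lines at 2-fold. Six4 and Gbx2 run against the direction of most members in both panels.

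The 2 own-control comparisons share no array. Of 24 members above the floor in both, 20 were higher in the array labelled Ring1B KO and lower in the array labelled double KO (83.3%), where 32.2% of all genes above the floor in both were. The direction of a member with 1 array of a pair below the floor was fixed by its entry through the other. Of the 11 members with all 4 arrays above the floor, 7 had this pattern (63.6%), against 30.0% of all such genes. En2, Msx2, Meis1, Meis2, Barx1 and Cdx1 passed 2-fold in both of these opposite directions, 6 of the 40 members above the floor (15.0%) against 1.71% of all genes above the floor. Six4 and Gbx2 ran the other way in both comparisons, Otx2 was higher in both and Pax6 lower in both.

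**Figure D4:**
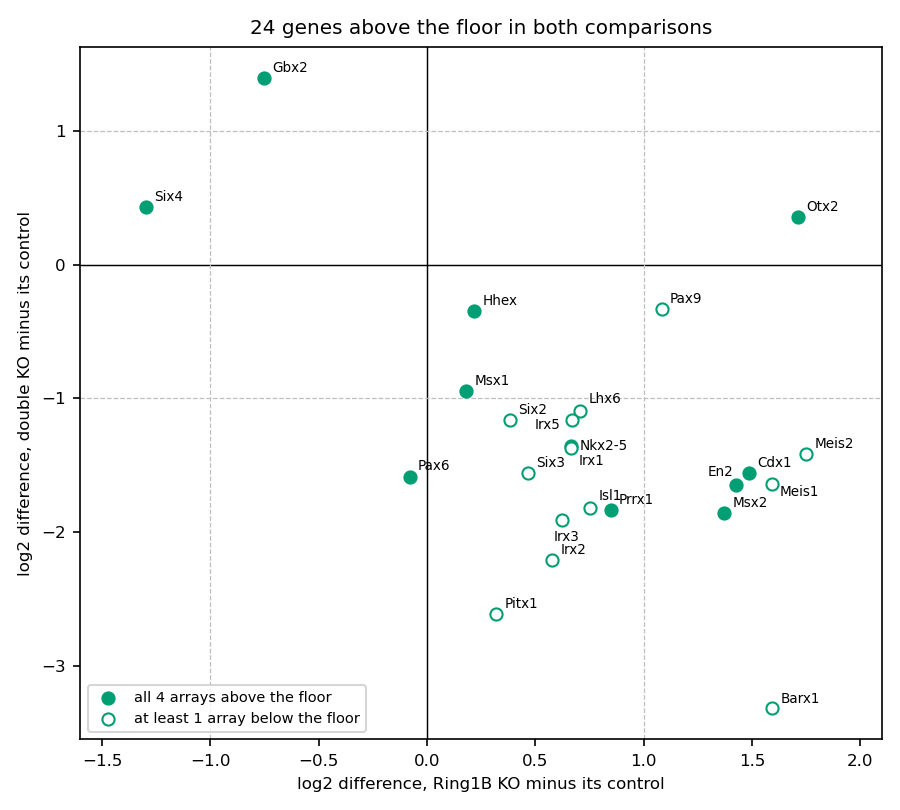
Log2 difference of the 24 members above the floor in both comparisons, Ring1B KO minus its control on the horizontal axis and double KO minus its control on the vertical axis, with open points where at least 1 array was below the floor and the size is a bound. In the lower right quadrant lie 20 members, and Six4 and Gbx2 lie in the upper left.

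The promoters of the members were read from RefSeq (GRCm38.p6), as windows from 250 bases before to 50 after the start site, taking the start farthest upstream. A promoter was found for 34 of the 48 genes, among them Pax2, which has no expression value here. CpG dinucleotides, which vertebrate genomes have lost outside CpG islands, were dense in many of them, and CpG islands are known as the places where Polycomb complexes bind in ES cells. The pattern searched was CG, which reads the same on both strands. Of the 34, 17 (50.0%) had an observed over expected CpG ratio of at least 0.75 with at least 55% G and C, against 22.4% of 27025 promoters of the same length. The median ratio was 0.76 against 0.39, and the median number of CpGs was 20 against 7. The lowest ratios were those of Lhx8 (0.24) and Lhx9 (0.26) and the highest those of Nkx6-1 (1.18) and Six2 (1.13). These values describe the sequence only, and no binding was measured here.

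**Figure D5:**
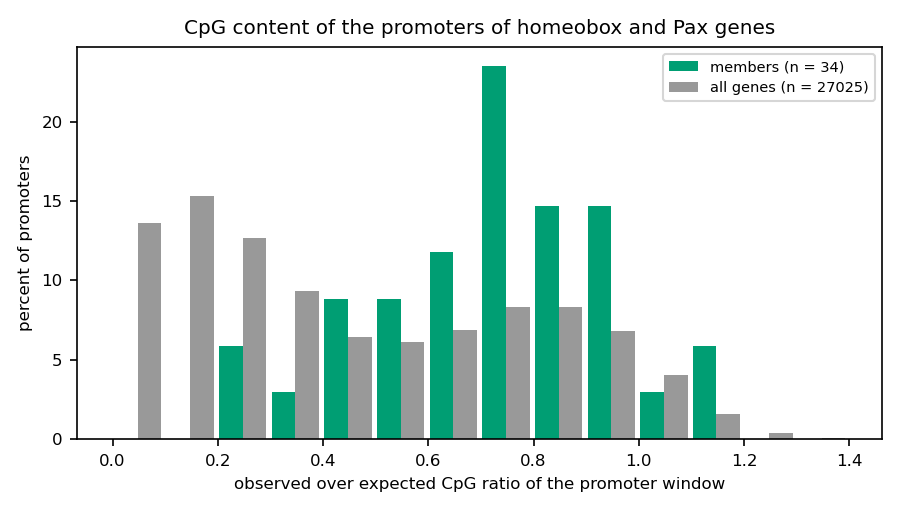
Percent of promoters in each bin of the observed over expected CpG ratio, in a window of 300 bases around the start site, for the 34 members with a promoter in the RefSeq table and for all 27025 genes in it. The fullest member bin, from 0.7 to 0.8, holds 8 of the 34.

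The 200 bases before the start site are shown for 4 genes higher in the array labelled Ring1B KO and lower in the array labelled double KO (Barx1, Isl1, Msx2, Meis2) and for the pair that ran the other way (Six4, Gbx2), so that their CpG content can be compared. Each is written 5′ to 3′ along the gene's strand, with every CpG in capitals.
Barx1, chr13:48662836-48663035, plus strand: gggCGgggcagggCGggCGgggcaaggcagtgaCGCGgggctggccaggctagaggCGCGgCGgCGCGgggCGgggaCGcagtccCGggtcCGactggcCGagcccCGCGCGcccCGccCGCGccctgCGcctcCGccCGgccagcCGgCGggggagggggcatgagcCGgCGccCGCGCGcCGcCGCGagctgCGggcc
Isl1, chr13:116309689-116309888, minus strand: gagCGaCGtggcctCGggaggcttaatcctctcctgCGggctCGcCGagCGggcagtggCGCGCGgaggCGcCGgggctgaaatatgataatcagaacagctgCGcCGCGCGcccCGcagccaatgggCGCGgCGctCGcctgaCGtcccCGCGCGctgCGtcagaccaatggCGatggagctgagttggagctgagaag
Msx2, chr13:53472781-53472980, minus strand: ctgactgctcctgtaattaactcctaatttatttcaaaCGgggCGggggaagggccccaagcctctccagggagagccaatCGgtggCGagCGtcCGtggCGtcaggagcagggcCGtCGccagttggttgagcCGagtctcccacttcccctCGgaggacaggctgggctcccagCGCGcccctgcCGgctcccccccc
Meis2, chr2:116064620-116064819, minus strand: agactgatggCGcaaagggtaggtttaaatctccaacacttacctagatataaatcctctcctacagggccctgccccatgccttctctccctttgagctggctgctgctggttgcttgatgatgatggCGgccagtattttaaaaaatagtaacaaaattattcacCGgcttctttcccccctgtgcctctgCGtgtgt
Six4, chr12:73113426-73113625, minus strand: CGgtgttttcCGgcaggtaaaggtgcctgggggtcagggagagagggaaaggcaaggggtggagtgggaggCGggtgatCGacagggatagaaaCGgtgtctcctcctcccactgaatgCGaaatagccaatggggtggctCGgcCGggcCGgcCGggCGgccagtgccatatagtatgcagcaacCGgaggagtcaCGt
Gbx2, chr1:89931177-89931376, minus strand: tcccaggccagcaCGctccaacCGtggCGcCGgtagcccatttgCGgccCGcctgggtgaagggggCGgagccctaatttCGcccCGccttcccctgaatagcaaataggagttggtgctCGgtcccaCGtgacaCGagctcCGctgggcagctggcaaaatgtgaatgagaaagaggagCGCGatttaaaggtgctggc
Barx1 has 35 CpGs in these 200 bases and Isl1 has 27, Msx2 has 14 and Meis2 has 4. Six4 and Gbx2 have 13 and 15. The relation of CpG number to the differences was not tested.

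Values are given below in the order Ring1B control, Ring1B KO, double KO control and double KO. Among the LIM genes, Isl1, a factor of motor neurons and heart progenitors, read 27.9, 61.6, 129 and 7.92. Only the arrays labelled Ring1B KO and double KO control were above the floor, so the Isl1 difference was at least 1.68-fold upwards in the Ring1B comparison and at least 3.53-fold downwards in the double KO comparison. Its other probe set gave 23.8, 55.2, 75.3 and 11.3, with the same 2 arrays above the floor. Lhx2, a regulator of forebrain and eye, read 12.0, 22.1, 111 and 2.83, above the floor on the array labelled double KO control alone, and was at least 3.05-fold lower in the array labelled double KO. Lhx6, a factor of cortical interneurons, read 48.2, 78.7, 78.1 and 36.2, which is 1.63-fold higher and at least 2.13-fold lower, and its 2 probe sets averaged to -0.55 in the double KO comparison. Lhx8, a factor of basal forebrain neurons, was above the floor only on the array labelled double KO control, at 69.9. Of the 7 LIM genes, 4 could be read in the double KO comparison, all as bounds, and 3 were at least 2-fold lower (9.99% of all genes). In the Ring1B comparison 2 could be read, 1 of them as a bound, and neither value passed 2-fold (3.54% of all genes higher).

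Barx1, which is expressed in stomach mesenchyme and in the jaw, was the only Nkx or Barx gene 2-fold apart in both comparisons. Its signals were 25.6, 110.4, 363 and 25.3. The arrays labelled Ring1B KO and double KO control were high and the other 2 lay below the floor, so the folds were at least 3.02 higher and at least 9.93 lower, the largest bound of any member in the double KO comparison. Nkx2-5, a cardiac regulator, was above the floor on all 4 arrays at 37.7, 59.8, 95.5 and 37.3, a 1.59-fold higher and a 2.56-fold lower signal. Nkx2-2 and Nkx6-1, patterning factors of the ventral neural tube and pancreas, exceeded the floor only on the array labelled double KO control, at 49.0 and 57.0. Their differences in the double KO comparison are bounds under 2-fold, so larger ones are not excluded.

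Six2, Six3 and Six4 did not share 1 direction. Six2 and Six3, which are chromosomal neighbours, act in kidney progenitors and in the forebrain and eye. Six2 read 29.4, 47.7, 90.8 and 40.5 and was 2.24-fold lower in the double KO comparison. Six3 read 42.1, 58.1, 108 and 13.2 and was at least 2.94-fold lower. Its other probe sets were below the floor on all 4 arrays and counted as 0 in a probe set mean of -0.52. In the Ring1B comparison Six3 was under 2-fold higher, at a log2 difference of 0.47, and Six2 was higher by at least 0.38. Six4, a factor of muscle precursors, was well above the floor on all 4 arrays and read 807, 328, 827 and 1114. It was 2.46-fold lower in the array labelled Ring1B KO and differed by 0.43 on the log2 scale in the double KO comparison. The 4 Six4 probe sets were all lower in the Ring1B comparison (-1.30, -0.92, -0.70 and -0.44), but in the double KO comparison 3 were higher and 1 was lower (-0.33).

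Genes that set the identity of the brain from front to back had several patterns. Otx2, required in the forebrain and midbrain and in epiblast cells that leave the naive state, read 77.6, 254, 1391 and 1778. The Ring1B pair was low and the double KO pair high. Otx2 was 3.28-fold higher in the array labelled Ring1B KO, differed by 0.35 in the double KO comparison, and differed 17.9-fold between the controls. Gbx2, a hindbrain regulator that also sustains ES cell self-renewal, showed the reverse split of the pairs, at 718, 426, 83.2 and 219. It differed by -0.75 in the Ring1B comparison, stood 2.63-fold over its control in the double KO comparison, and differed 8.62-fold between the controls, lower in the double KO control. Otx2 and Gbx2 repress each other at the boundary of midbrain and hindbrain. Each is measured by 1 probe set here.

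En2, which acts at that boundary, read 82.5, 222, 127 and 40.7. It was 2.69-fold higher in the Ring1B comparison and 3.13-fold lower in the double KO comparison, with all 4 arrays above the floor. Otx1 and Emx2, forebrain genes, exceeded the floor only in the double KO control (47.0 and 41.6), and Emx1 only on the array labelled Ring1B KO (46.5). For these 3 only bounds under 2-fold can be given, so larger differences are not excluded. En1 had a highest signal of 26.4, below the floor.

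The Dlx genes, factors of the branchial arches, limbs and forebrain interneurons, were near or below the floor. On the array labelled double KO control Dlx2, Dlx3, Dlx4 and Dlx5 read 39.5, 75.8, 69.6 and 47.5, and on the other 3 arrays none exceeded the floor at the probe set used. Dlx3 was at least 2.07-fold lower in the double KO comparison, and its neighbour Dlx4 at least 1.90-fold lower. The other Dlx3 probe set was below the floor on both arrays of that pair and counted as 0 in a mean of -0.53. A second Dlx4 probe set was above the floor on the array labelled double KO alone, at 38.7. In the Ring1B comparison no Dlx gene could be read at the probe set used. A second Dlx3 probe set exceeded the floor on the array labelled Ring1B KO alone, at 41.8.

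The 6 listed genes of the TALE class are homeodomain factors with a 3-residue extension in a loop. All 6 were at least 2-fold lower in the array labelled double KO (9.99% of all genes). Each was below the floor there at the probe set used. They were thus read through the control array alone, and their direction was set by that entry. The Irx genes pattern neural tissue, heart and limb. Irx2 read 86.8, 129.5, 169 and 26.6 (at least 4.62-fold lower) and Irx3 read 97.5, 150.4, 138 and 33.2 (at least 3.76-fold lower). Irx1, the neighbour of Irx2, read 29.1, 57.9, 94.8 and 30.4 and was at least 2.59-fold lower. Irx5, the neighbour of Irx3, read 26.9, 58.2, 82.0 and 27.5 and was at least 2.24-fold lower. In the Ring1B comparison the values of the 4 Irx genes ran from 0.58 for Irx2 to 0.67 for Irx5 on the log2 scale. Those of Irx1 and Irx5 are bounds, so larger differences are not excluded for them, and Irx2 and Irx3 were under 2-fold.

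Meis1 and Meis2 encode partners that bind DNA together with Hox proteins. Meis1 read 40.8, 123, 114 and 17.2, which is 3.01-fold higher in the array labelled Ring1B KO and at least 3.12-fold lower in the array labelled double KO. Meis2 read 26.04, 123, 97.8 and 10.9 at a probe set that can match several transcripts, and 4.88, 102, 129.9 and 0.754 at another. At both Meis2 probe sets the arrays labelled Ring1B KO and double KO control were above the floor and the other 2 were below it. The folds were at least 3.36 and 2.79 higher in the Ring1B comparison and at least 2.67 and 3.55 lower in the double KO comparison. A further Meis1 probe set exceeded the floor only on the array labelled double KO, at 49.2. Averaged over all their probe sets, with those below the floor on both arrays as 0, both genes were below 2-fold in both comparisons. Meis1 then differed by 0.77 and -0.40 on the log2 scale, and Meis2 by 0.81 and -0.83.

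Msx1 and Msx2 are targets of BMP signalling in limb, tooth and neural crest. Msx2 read 55.02, 142, 189 and 52.2, with the arrays labelled Ring1B KO and double KO control above the other 2, and was 2.59-fold higher and 3.63-fold lower. The mean of its 2 probe sets differed by 0.69 and -0.93, below 2-fold in both comparisons. The other probe set, below the floor on all 4 arrays, counted as 0 in it. Msx1 read 41.4, 46.9, 106 and 54.9, and at the brighter probe set its log2 differences were 0.18 and -0.94. The Msx1 probe sets disagreed in the Ring1B comparison, since the other one differed by -0.51.

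Among genes of gastrulation and the body axis, Cdx1, a regulator of posterior identity and of Hox genes, read 46.7, 131, 263 and 89.2. All 4 arrays were above the floor, and Cdx1 was 2.80-fold higher in the Ring1B comparison and 2.95-fold lower in the double KO comparison. Evx1, a gene of the primitive streak, was above the floor only on the array labelled double KO control, at 76.9, and at least 2.101-fold lower in the array labelled double KO. Mixl1 and Gsc, also of the streak and organizer, barely passed the floor there (40.6 and 37.1). Hhex, a gene of anterior endoderm, liver and blood vessels, read 225, 262, 135 and 106 and was under 2-fold apart in both comparisons. Meox1, a somite gene, read 43.2 on the Ring1B control and was below the floor elsewhere.

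Of the limb and face genes, Pitx1, which specifies the hindlimb, read 25.4, 45.6, 224 and 22.3 and was at least 6.13-fold lower in the array labelled double KO. Its other probe set gave 10.2, 30.4, 114 and 3.58, at least 3.12-fold lower. Prrx1, a factor of limb and craniofacial mesenchyme, read 208, 374, 228 and 63.7 at its brightest probe set, a 1.80-fold higher and 3.57-fold lower signal. The 5 Prrx1 probe sets that could be read in the Ring1B comparison were all higher there, from 0.47 to 1.27 on the log2 scale. The 4 that could be read in the double KO comparison were all lower, from -0.25 to -1.84. All 6 averaged to -0.68, with those below the floor on both arrays counted as 0. Pitx1 was thus high on the array labelled double KO control, while Prrx1 was lowest on the array labelled double KO.

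Of the 3 Pax genes above the floor, Pax6 was 2-fold apart in the double KO comparison and Pax9 in the Ring1B comparison. Pax6, a master regulator of eye and neural tissue, read 55.4, 52.4, 140.2 and 46.8. The array labelled double KO control was high and the other 3 were alike, a 2.999-fold lower signal in the double KO comparison and a log2 difference of -0.08 in the Ring1B comparison. Averaged over its 5 probe sets, with those below the floor on both arrays as 0, the double KO difference of Pax6 was -0.46. Pax3, of dorsal neural tube and muscle progenitors, was above the floor only on the array labelled double KO control, at 64.6, and at least 1.77-fold lower, with another probe set at least 2.21-fold lower. Pax9, of tooth and thymus, read 21.1, 77.5, 46.1 and 5.85 and exceeded its control at least 2.12-fold in the Ring1B comparison. Its 2 other probe sets were below the floor on both arrays of the Ring1B pair and counted as 0, so the mean of the 3 differed by 0.36.

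The members nearest to the 2-fold limit were Pax9 inside it (1.08) and Prrx1 outside it (0.85) in the Ring1B comparison, and Dlx3 inside it (-1.05) and Msx1 outside it (-0.94) in the double KO comparison. Members with several probe sets above the floor had the same direction at all of them in 5 of 6 cases in the Ring1B comparison (not Msx1) and in 8 of 11 cases in the double KO comparison (not Dlx4, Meis1 or Six4).

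Of 78 other homeobox and paired-box genes outside the list, 67 were named on the array. In the Ring1B comparison 2 of the 28 above the floor were at least 2-fold higher (Nkx2-4 and Vax2) and 1 was lower (Nkx6-3), with a median of 0.10. In the double KO comparison 8 of 38 lay 2-fold or more below the control, among them Cdx2, Isl2, Shox2 and Tlx1, and Nkx6-3 and Hesx1 were higher, with a median of -0.32. These shares, 7.14% higher and 21.1% lower, were smaller than those of the listed genes, where 3.54% and 9.99% of all genes were called. Of the 8 lower genes, 7 had 1 array below the floor, so their direction was set by their entry. Both lists were chosen with earlier results of these data known, so the difference between them cannot count as support. It was not tested.

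Fibroblast and primitive endoderm markers differed in the same directions as most homeobox and Pax genes, and neural progenitor markers did not. Of 12 fibroblast markers named on the array, 11 were above the floor in the Ring1B comparison and all 11 were higher, with a median log2 difference of 0.48 and none at 2-fold. In the double KO comparison 9 of 12 passed 2-fold downwards (9.99% of all genes). The median was -1.74, against -0.05 over all genes. Their summed signal was 11087, 15411, 6397 and 2344. Col1a1 and Col3a1 were above the floor on all 4 arrays, and Lum was above it only on the array labelled double KO control. The summed fibroblast signal was lower in the double KO control than in the Ring1B control, a comparison across the pairs that rests on the scaling. Its largest parts were Acta2 (4762 in the Ring1B control and 1502) and Tagln (2410 and 1483). Between the controls, 9 of the 12 markers were lower and 3 higher.

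Of 11 primitive endoderm markers, 7 of 10 above the floor were at least 2-fold higher in the Ring1B comparison (3.54% of all genes), with a median of 2.05. In the double KO comparison 5 of 8 passed 2-fold downwards (9.99% of all genes), with a median of -1.40. Of these 8, 4 were below the floor on the array labelled double KO, including 2 of the 5, so their direction was set by their entry. Their summed signal was 4694, 14318, 5133 and 1921, and Afp was below the floor on every array. Of 6 named neural progenitor markers, all 4 above the floor in the Ring1B comparison were lower, with a median of -0.28 and none at 2-fold. In the double KO comparison 2 of 3 were higher, Tubb3 by over 2-fold (3.02% of all genes), and Neurog2 and Dcx were below the floor on all 4 arrays. The part of fibroblasts or endoderm cells in the signals of the homeobox and Pax genes was not tested.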

How the data were processed

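RNA of mouse ES cells was measured on 4 Affymetrix arrays of 45101 probe sets, 1 per group. The deposited values are linear signal intensities. The submitters' processing notes name MAS5 as the tool, so the authors' intensity values are taken as MAS5 signals. Version, target and detection calls are not given in the sources used here. Signals were scaled to a common 2%-trimmed mean of 277, which assumes alike total signal, floored at 36.6 (40th percentile of 34945 probe sets with 1 gene symbol, manufacturer's controls left out) and log2-transformed. Flooring shrinks the differences of dim genes. The probe set with the highest mean log2 signal stood for a gene, giving 18193 genes. Symbols came from the platform annotation. Genes at least 2-fold apart, with 1 array above the floor, were counted, with no test. All listed members were accounted for, and those at least 2-fold apart were described in full. The members and lists were chosen with earlier results of these data known. The signal strata, the counts limited to arrays above the floor and the promoters shown were chosen after values were seen. The steps were tested on simulated data, made from copies of 1 array with changes planted in bright genes of 1 probe set each. That does not test the handling of dim signals, the bounds or the choice among probe sets. Python 3.11.15, pandas 2.3.3 and NumPy 2.4.6 were used. Alternatives covered scaling, floor, probe set choice, fold and control array.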

Additional observations from a re-analysis of the deposited data

Results flagged for a closer look

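Members differed at least 2-fold from their own control in opposite directions in the Ring1B and double KO comparisons, and each was marked for this. The log2 difference in the Ring1B comparison exceeded that in the double KO comparison by 4.91 for Barx1, by 3.23 for Msx2, by 3.23 for Meis1, by 3.17 for Meis2, by 3.07 for En2 and by 3.05 for Cdx1. With 1 array per group these differences were not tested. Those of Barx1, Meis1 and Meis2 include at least 1 signal at the floor and are bounds. No group had enough arrays to look for outliers.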

How the results depend on the processing

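The count of members at least 2-fold apart was 9 in the Ring1B comparison, 22 in the double KO comparison and 19 between the controls. With a 3-fold limit it was 4, 10 and 8, under a 20th percentile floor 16, 37 and 32, and under a 60th percentile floor 2, 2 and 4. These counts hold both directions, and the parts in 1 direction follow in the same order of settings. Higher in the Ring1B comparison were 4 of 26, 15 of 43 and 1 of 10, against 0.972%, 5.54% and 1.85% of all genes. Lower in the double KO comparison were 10 of 38, 36 of 47 and 2 of 14, against 3.52%, 13.3% and 5.78%. Higher between the controls were 7 of 39, 30 of 47 and 3 of 14, against 4.03%, 14.0% and 10.4%. Averaging probe sets gave 4 of 28 in the Ring1B comparison, all higher (2.56% of all genes). In the double KO comparison it gave 14 of 38, 13 of them lower (6.96% of all genes). A 1.5-fold limit gave 17 of 26 in the Ring1B comparison, 15 higher and 2 lower (9.56% and 9.10% of all genes). With signals as deposited the count was 11 of 29 in the double KO comparison, 10 of them lower (9.89% of all genes). Between the controls it was 10 of 34, 3 higher and 7 lower (0.6999% and 65.2% of all genes). Against the Ring1B control, 7 of 18 members were apart in the array labelled double KO, 6 of them lower (9.87% of all genes). The median of 0.66 in the Ring1B comparison became -0.49 against the other control and 0.19 under the 60th percentile floor. The median of -1.08 in the double KO comparison became -0.22 against the other control, -0.63 as deposited, -1.65 and -0.13 under the 20th and 60th percentile floors, -1.48 with a pseudocount of 16 and no floor, and -0.65 with probe sets averaged. A lower floor widens the bounds by construction, and a higher one leaves fewer genes. Averaging counts a probe set below the floor on both arrays as 0. The deposited scale kept the floor of 36.6 on double KO arrays whose deposited trimmed means were 160 and 147, not 277. That makes their bounds smaller by construction and left 29 members readable in the double KO comparison. The cause of the other differences was not tested.

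In the own-control comparisons, no member that could be read turned its direction under quantile normalization, a common median or the deposited scale, which left 37 and 29 of 38 members readable in the double KO comparison under the latter 2, but scaling to a common median moved the median of all genes in the double KO comparison to 0.25. Called by all 8 of the other settings of scaling, floor and probe set choice were Otx2 (of 9) in the Ring1B comparison and Barx1 and Cdx1 (of 22) in the double KO comparison. Each of these members has 1 probe set, so averaging probe sets could not change it. Under the 60th percentile floor Otx2 stood at 1.01, Barx1 at -1.52 and Cdx1 at -1.05. Between the controls, the deposited scale moved the median of all genes from 0.14 to -1.44, and with this shift 17 of 31 members turned. No paired analysis was possible because each group has 1 array, and for the same reason no replicate could be left out. The number of arrays limits the precision, and most sizes below the floor are bounds.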

Other observations

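Values of members that lie next to each other in the genome are given here without a comparison to other pairs. In the double KO comparison Irx1 and Irx2, which lie 661 kb apart, differed by -1.37 and -2.21, and Irx3 and Irx5, 556 kb apart, by -1.91 and -1.17. Six3 and Six2, 36.5 kb apart, differed by -1.56 and -1.16, and Dlx3 and Dlx4, 15.2 kb apart, by -1.05 and -0.93. In the Ring1B comparison the Irx pairs differed by 0.66 and 0.58 and by 0.62 and 0.67, and Six3 and Six2 by 0.47 and 0.38. Most of these values are bounds.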
